A study of Mus musculus with 6 samples.

Results

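Transcripts of 10 transcription factors of the lateral plate mesoderm and its mesenchyme were examined in aggregates of mouse embryonic stem cells (mESCs). They are the forkhead factors Foxf1, Foxf2, Foxc1 and Foxc2, the homeobox factors Msx1, Msx2, Prrx1 and Prrx2, and the basic helix-loop-helix factors Twist1 and Twist2. The members were taken by name, each as the brightest array row that carries its symbol alone, and all 10 were found among 30176 genes with such a row. Each of the 10 has 1 row.

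RNA of the aggregates was read on Clariom D arrays, whose probes cover mouse coding and long non-coding transcripts, with 3 arrays in each group. The pre-differentiated group (after arrays) held aggregates of the R1 mESC line that had grown for 7 days with leukaemia inhibitory factor (LIF) and then for 3 days in regular DMEM to which BMP-4 (25 ng/ml) and bFGF (5 ng/ml) had been added. The undifferentiated group (before arrays) held aggregates taken on day 7 of culture with LIF and Knockout serum. Both groups came from 1 cell line and were grown inside alginate core-shell microcapsules, and each array is a biological replicate by its label. Since the second medium names neither LIF nor the serum, the growth factors, the change of medium and the further days of culture cannot be told apart.

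The lateral plate is the mesoderm at the flank of the embryo. Its inner, splanchnic layer gives the mesenchyme of gut and lung and part of the heart, and its outer layer gives the mesenchyme of the limb buds and body wall. Bone morphogenetic proteins such as BMP-4 pattern this tissue, and Msx genes are well known targets of the BMP pathway. None of the 10 factors is restricted to the lateral plate. Twist1, the Msx genes and the Prrx genes are also active in cranial neural crest mesenchyme, and the Foxc genes in paraxial mesoderm. RNA of whole aggregates gives no cell of origin, and fewer cells of a type cannot be told apart from less RNA per cell.

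The after arrays were not alike, which touches every comparison below. On the leading principal component of the 5000 most variable rows (76.6% of the variance) after replicate 1 scored -2.48, while after replicates 2 and 3 scored 131.4 and 130.9 and the before arrays lay between -109.3 and -63.9. The mean log2 signal of 12 pluripotent cell markers was 12.21 on after replicate 1 and 6.26 and 6.82 on after replicates 2 and 3, against 12.83 to 13.39 on the before arrays. The values of the 10 factors are therefore given for each array, and their changes also without after replicate 1. The deposited values are log2 signals with no detection call, so a background level of 4.27 was taken from olfactory and vomeronasal receptor genes. Over all rows the median log2 change was -0.18, so each change below is 0.18 larger when set against that median.

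Of the 10 factors, Foxf2 and Msx2 rose after pre-differentiation and none fell at an adjusted p under 0.05 by limma. Both calls were lost with Student's test after adjustment (adjusted p = 0.141 for Foxf2 and 0.135 for Msx2). The paper's methods name that test for other assays, not for the arrays. Limma with the replicate number as a block also lost both (0.116 and 0.102), and Foxf2 was lost with a trend and robust variances (0.0618). Counts over all genes under these settings are not given here, so the losses cannot be called particular to these 2 genes. Over all 30176 genes 1.24% were higher and 0.65% lower by the limma fit of all 6 arrays. Before adjustment, at p under 0.05, 5 of the 10 were higher and 0 lower, where 10.9% of all genes were higher and 19.7% lower. In 6 of the 10 (Foxf1, Foxf2, Foxc2, Msx2, Twist1 and Twist2) the after arrays all exceeded the before arrays, which held for 11.8% of all genes. In 0 of the 10 they all lay below, which held for 28.2% of all genes. The median log2 change was 0.90 over the 10 factors and -0.16 over all genes. Without after replicate 1 Prrx1 and Twist1 also passed, which made 4 of 10 higher and 0 lower, where 7.8% of all genes were higher and 7.48% lower. Without any 1 of the other 5 arrays 0 of the 10 passed, and over all 30176 genes 101 were higher and 67 lower without before replicate 2 and 0 in either direction without each of the other 4.

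**Figure D1:**
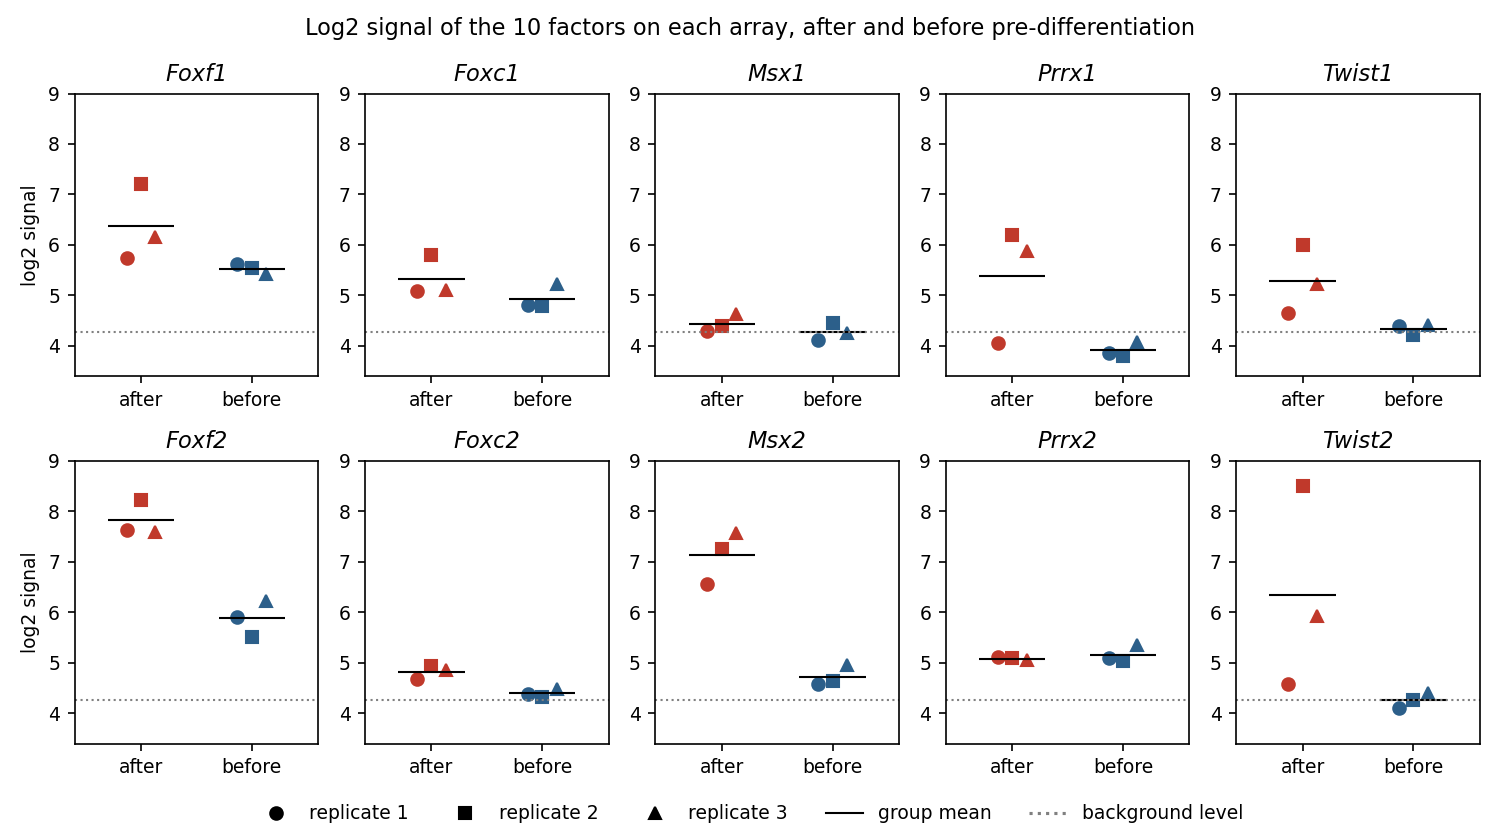
Log2 signal (y axis) of each factor on each after array (red, left) and each before array (blue, right), with symbols for the replicate number, bars for the group means and a dotted line at the background level of 4.27. Foxf2 and Msx2 are high on all 3 after arrays, whereas Prrx1 and Twist2 are high on after replicates 2 and 3 and near their before values on after replicate 1.

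Foxf2, a forkhead factor of gut and craniofacial mesenchyme, had log2 signals of 7.64, 8.24 and 7.59 on after replicates 1, 2 and 3, against 5.90, 5.51 and 6.23 on the before arrays. All after arrays lay above all before arrays, and the after arrays spanned 0.64 log2 units and the before arrays 0.73. Its log2 change of 1.94 had a standard error of 0.26 and passed limma's test (adjusted p = 0.0454). This is a 3.84-fold higher signal (95% interval 2.45 to 6.01). The call was lost without any 1 of the arrays other than after replicate 1, with an adjusted p between 0.0648 and 0.182, while the change stayed between 1.73 and 2.12.

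Foxf1 is the related factor of splanchnic mesoderm, where it is needed for lung and gut mesenchyme and their vessels. Its log2 signals were 5.73, 7.21 and 6.16 on the after arrays, against 5.62, 5.54 and 5.43 on the before arrays. The groups did not overlap, but after replicate 1 stood only 0.11 above the highest before array. The log2 change was 0.84 (95% interval -0.09 to 1.77, adjusted p = 0.230 by limma), and 1.16 without after replicate 1 (adjusted p = 0.103).

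Foxc1 and Foxc2, which act together in the mesoderm of somites, heart and vessels, had small differences. Foxc1 was at 5.10, 5.79 and 5.10 after pre-differentiation and at 4.81, 4.78 and 5.23 before it. Only after replicate 2 stood above all before arrays, and the log2 change of 0.39 (95% interval -0.21 to 0.996, adjusted p = 0.349 by limma) did not pass, nor did that of 0.51 without after replicate 1 (adjusted p = 0.295). Foxc2 was at 4.68, 4.93 and 4.87 after and at 4.39, 4.32 and 4.48 before. Its groups did not overlap and its spread was narrow, with a log2 change of 0.43 (95% interval 0.12 to 0.73, adjusted p = 0.126 by limma), or 1.34-fold, and of 0.50 without after replicate 1 (adjusted p = 0.0863).

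The forkhead members lie in a pair of gene clusters in the RefSeq annotation. On chromosome 13 the protein-coding order is Foxq1, Foxf2, Foxc1, Gmds, and on chromosome 8 it is Foxf1, Mthfsd, Foxc2, Foxl1. Foxq1, an epithelial forkhead factor, was at 9.47, 8.04 and 9.25 after and at 7.02, 6.48 and 6.92 before, which differ by 2.11 log2 units (standard error 0.40, adjusted p = 0.0686 by limma). Like Foxf2 it was high on all after arrays, but it was highest on after replicate 1. Foxc1 and Gmds on the other side of Foxf2 had log2 changes of 0.39 and 0.34. Foxl1, a factor of gut mesenchyme that follows Foxc2, had a log2 change of -0.02 (adjusted p = 0.953), with after and before arrays overlapping. Fendrr, the long non-coding RNA transcribed next to Foxf1 and known in mouse from lateral plate mesoderm, stayed between 3.69 and 4.16 on the after arrays and between 3.71 and 3.90 on the before arrays, under the background level on all 6.

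Msx2 had the largest change of the 10 over all 6 arrays, while Twist2 had a larger one without after replicate 1 (2.96 against 2.69) or after replicate 3 (2.28 against 2.19). Msx2 encodes a homeobox repressor of limb, skull and heart valve mesenchyme. Its log2 signals were 6.57, 7.25 and 7.57 on the after arrays, against 4.58, 4.64 and 4.96 on the before arrays, so the lowest after array was 1.61 log2 units above the highest before array. Its log2 change of 2.41 had a standard error of 0.28 and passed limma's test (adjusted p = 0.0376), with a 5.31-fold higher signal (95% interval 3.29 to 8.57). Without after replicate 1 it was 2.69 (adjusted p = 0.00426), and without any 1 of the others it was between 2.19 and 2.53 with an adjusted p between 0.0632 and 0.169.

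Msx1, its closest relative, stayed close to the background level, with all 3 after arrays and 1 of the 3 before arrays above it. Its signals were 4.29, 4.39 and 4.63 after and 4.12, 4.45 and 4.26 before, and the groups overlapped. The log2 change was 0.16 (95% interval -0.21 to 0.54, adjusted p = 0.508 by limma), or 0.35 with each array centred on its median (adjusted p = 0.299) and 0.24 without after replicate 1 (adjusted p = 0.405). The opposite-strand transcript Msx1os lay between 3.87 and 4.03 after and between 3.92 and 4.09 before.

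Prrx1 marks limb bud and craniofacial mesenchyme. Its log2 signals were 4.05, 6.20 and 5.88 on the after arrays, against 3.87, 3.80 and 4.07 on the before arrays. After replicate 1 fell among the before arrays and below background, and the other after arrays lay more than 1.8 log2 units above all of them. Over all arrays it was 1.46 higher on the log2 scale (standard error 0.57, adjusted p = 0.186 by limma), and without after replicate 1 it was 2.13 (standard error 0.17, adjusted p = 0.00520). The fold over all arrays was 2.76 (95% interval 1.05 to 7.23). As every before array was under background, the before values were also set to the background level, which gave a mean fold of 2.16 over the 3 after arrays. That value is not a lower bound, since after replicate 1 was itself under background.

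Prrx2, which acts together with Prrx1 in limb and face mesenchyme, was flat. Its signals were 5.11, 5.09 and 5.05 after and 5.09, 5.04 and 5.35 before, with a log2 change of -0.08 (95% interval -0.39 to 0.24, adjusted p = 0.720 by limma), and of -0.09 without after replicate 1 (adjusted p = 0.734). The sign turned to 0.11 with median centring, 0.10 with quantile normalization and 0.02 without before replicate 3, and the gene passed under none of these. After replicate 2, on which Prrx1 was highest, had a Prrx2 value 0.06 below the before mean.

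Twist1 and Twist2 are basic helix-loop-helix factors that hold mesenchymal cells in a progenitor state, with Twist2 best known from the dermis. Twist2 was at 4.58, 8.50 and 5.94 on the after arrays and at 4.11, 4.27 and 4.40 on the before arrays. Its before mean of 4.26 lay at the background level of 4.27, with 2 of the 3 before arrays above it. The size of its change therefore rests on before signals near background. The groups did not overlap, but the after arrays spanned 3.91 log2 units, the widest range of the 10. Its log2 change of 2.08 therefore had a 95% interval of -0.26 to 4.42 (adjusted p = 0.235 by limma), and it did not pass without after replicate 1 either (2.96, adjusted p = 0.0808).

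Twist1 was at 4.66, 5.99 and 5.23 on the after arrays and at 4.39, 4.21 and 4.41 on the before arrays. It too was near background before, with 2 of the 3 before arrays above that level. Its after arrays had the same order as those of Twist2, Foxf1 and Prrx1, with replicate 2 highest and replicate 1 lowest. Its log2 change of 0.96 had a standard error of 0.34 (adjusted p = 0.163 by limma), or 1.28 without after replicate 1 (adjusted p = 0.0467). After replicates 1 and 3 alone left a log2 change of 0.61 (adjusted p = 0.328).

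**Figure D2:**
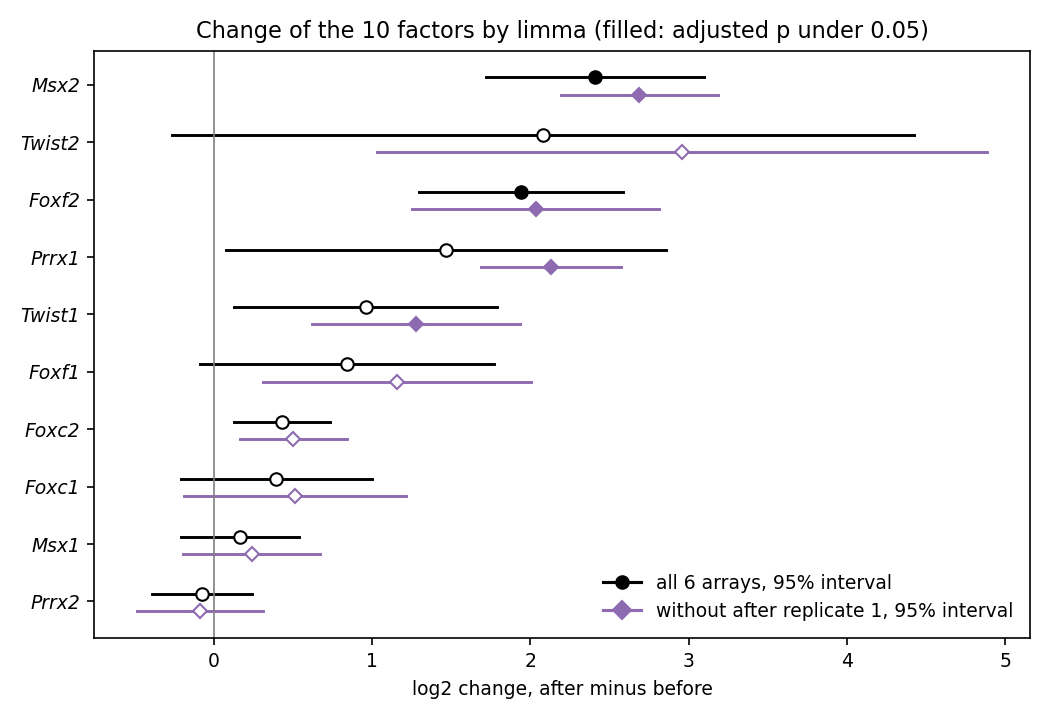
Log2 change of each factor, after minus before (x axis), with 95% intervals by limma, over all 6 arrays (black) and without after replicate 1 (purple); filled symbols passed an adjusted p of 0.05. Msx2 and Foxf2 are filled in both settings, Prrx1 and Twist1 only without after replicate 1, and Prrx2 and Msx1 lie near 0.

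The stretches before the annotated start of 3 of these genes are shown because Foxf2 and Msx2 rose and Prrx1 passed the test once after replicate 1 was left out. They are RefSeq sequences of GRCm38.p6, 250 bases each up to the base before the start, written 5′ to 3′ on the gene's strand. For Msx2 (chr13:53472781-53473030, minus strand) and Prrx1 (chr1:163313651-163313900, minus strand) the capitals mark the homeodomain core TAATTA, the kind of site that Msx and Prrx proteins bind. For Foxf2 (chr13:31625566-31625815, plus strand) they mark the E-box CANNTG, the kind of site bound by Twist proteins.
Msx2: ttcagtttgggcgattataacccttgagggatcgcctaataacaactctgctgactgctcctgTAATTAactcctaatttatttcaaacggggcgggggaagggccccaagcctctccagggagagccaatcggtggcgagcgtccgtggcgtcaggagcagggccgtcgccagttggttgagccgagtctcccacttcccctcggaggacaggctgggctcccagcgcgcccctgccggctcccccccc
Prrx1: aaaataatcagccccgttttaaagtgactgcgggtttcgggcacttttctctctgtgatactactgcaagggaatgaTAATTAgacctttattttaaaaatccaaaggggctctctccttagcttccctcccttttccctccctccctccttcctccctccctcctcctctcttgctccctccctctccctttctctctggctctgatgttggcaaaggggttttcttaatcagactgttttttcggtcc
Foxf2: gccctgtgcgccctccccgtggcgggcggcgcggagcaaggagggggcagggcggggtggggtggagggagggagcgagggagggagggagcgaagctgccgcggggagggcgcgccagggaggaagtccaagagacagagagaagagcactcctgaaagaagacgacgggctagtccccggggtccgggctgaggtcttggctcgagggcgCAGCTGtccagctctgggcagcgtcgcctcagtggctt

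A window of this kind was at hand for 8 of the 10 genes, not for Foxf1 and Foxc2, and motifs were sought on both strands. TAATTA occurred in 2 of the 8, Msx2 (187 bases before the start) and Prrx1 (173 bases before it), and in 4.84% of all 32851 windows. CANNTG occurred in 3 of the 8 (Foxf2, Msx1 and Msx2) and in 66.2% of all windows. GGCGCC, a site bound by BMP-activated Smad proteins, occurred in Foxc1 alone among the 8 and in 9.59% of all windows. TGTTTA, a forkhead core, occurred in 0 of the 8 and in 12% of all windows. Prrx1 also differed from the others in base composition, with 47.6% G and C against 61.6% to 71.6% in the other 7 and a median of 52.4% over all windows. These are matches of letters and say nothing of binding in the aggregates.

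The 10 factors form 5 pairs of close relatives, and the difference of the log2 signals within a pair was compared between groups, which asks whether both genes of a pair changed alike. With 3 arrays a side the smallest two-sided exact permutation p is 0.1 (0.167 after adjustment over the 5 pairs), so no pair could pass 0.05. Msx2 minus Msx1 was 2.28, 2.86 and 2.94 on the after arrays and 0.45, 0.19 and 0.70 on the before arrays, a change of 2.24 (exact permutation p = 0.1). Msx1 was above background on only 1 of the 3 before arrays, so these before differences rest in part on signals under it. Prrx1 minus Prrx2 was -1.06, 1.11 and 0.83 after and -1.22, -1.23 and -1.28 before. Prrx1 was under background on after replicate 1 and on every before array, so the differences on these 4 arrays have no order, and only after replicates 2 and 3 can be set apart from them. Foxf2 minus Foxf1 changed by 1.10 (exact permutation p = 0.1), and here after replicate 1 had the largest difference, 1.90, against 1.02 and 1.43 on after replicates 2 and 3 and -0.03 to 0.81 before. Twist2 minus Twist1 changed by 1.12 (exact permutation p = 0.3), with after replicate 1 at -0.07 among the before arrays (-0.29 to 0.06). Twist1 and Twist2 were each above background on only 2 of the 3 before arrays, so the order of these differences carries little weight. Foxc2 minus Foxc1 changed by 0.03 (exact permutation p = 0.9), with standard deviations of 0.32 after and 0.18 before, and its sign turned without after replicate 1, after replicate 3 or before replicate 3.

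**Figure D3:**
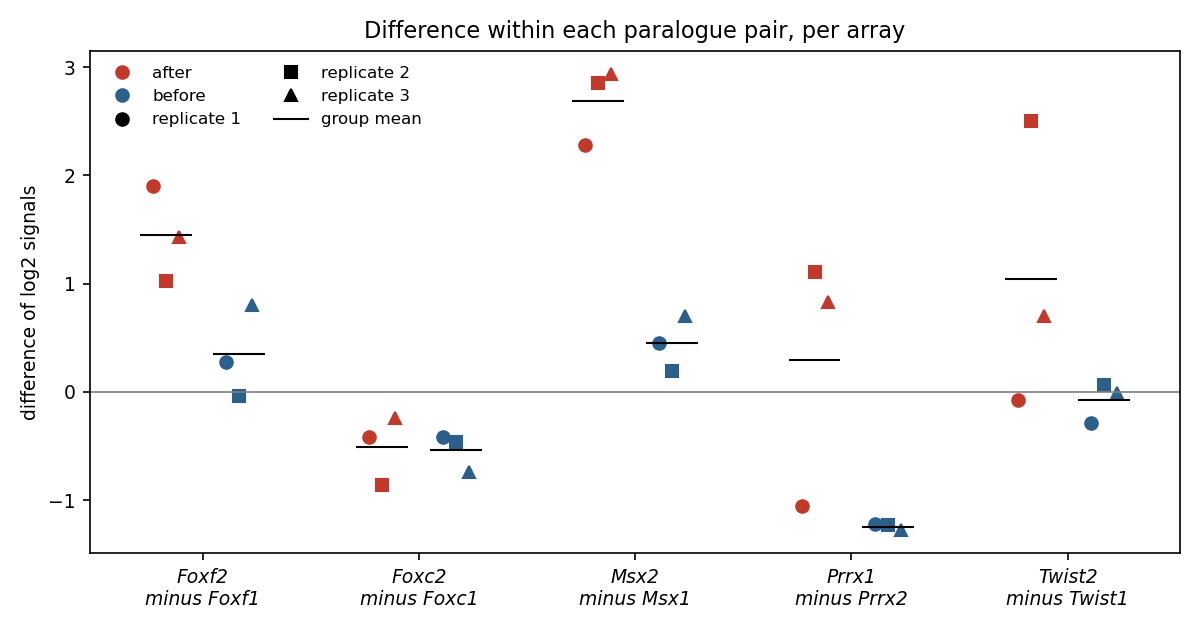
Difference of the log2 signals within each pair (y axis) on each after array (red, left) and before array (blue, right), with bars for the group means. The groups do not overlap for Foxf2 minus Foxf1 and Msx2 minus Msx1 and they overlap for the Foxc and Twist pairs. For Prrx1 minus Prrx2 after replicate 1 and the before arrays rest on Prrx1 signals under background. Msx1, Twist1 and Twist2 were also under background on some before arrays.

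The factors differed in how far after replicate 1 had moved. Its log2 distance from the before mean was 86.3% of the mean distance of after replicates 2 and 3 for Foxf2, 68.7% for Msx2 and 56.0% for Foxc2. For Foxc1 it was 30.9%, for Twist1 25.1%, for Foxf1 17.5%, for Twist2 10.97% and for Prrx1 6.33%. Msx1 (7.11%) and Prrx2 had too small a difference for such a share to carry weight. The share of Foxc2 rests on a small change. Its after replicate 1 stood 0.28 above the before mean, against 0.32 for Twist1 and 0.32 for Twist2. These shares describe 1 array and were not tested. After replicate 2 was above after replicate 3 for 8 of the 10, the exceptions being Msx1 and Msx2.

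Over the 6 arrays Foxf1, Twist1 and Twist2 had pairwise Pearson correlations of 0.974 to 0.988, and Foxf2, Foxc2 and Msx2 of 0.947 to 0.974. These sets were not separate, as Prrx1 and Twist1 correlated at 0.952, Foxc2 and Twist1 at 0.925 and Foxc2 and Prrx1 at 0.914. These are descriptions over 6 arrays that share the difference between groups, and for a single factor up to 15.6% of 8903 varying genes correlated with it above 0.9. The named genes closest in pattern to Twist2 were Frem1 (0.999), a basement membrane protein gene, and Gas1 (0.999), a membrane protein gene that acts with Hedgehog ligands. Closest to Twist1 were the matrix genes Spon2 (0.9997) and Olfml2b (0.9996), and to Prrx1 Chst2 (0.999) and Zfp521 (0.998). Foxf1 was closest to Hand2os1 (0.999), the non-coding RNA beside the heart factor gene Hand2, which was at 4.18, 6.01 and 4.66 after and at 4.12, 3.94 and 3.81 before. Foxf2 was closest to Mgll (0.998) and Hspb6 (0.991), Msx2 to Dnajc1 and Stard10 (both 0.998), Foxc2 to Atxn10 (0.998) and Fam210b (0.997), Foxc1 to Ndrg2 (0.995) and Rbm46 (0.991), Msx1 to Zfp251 (0.982) and Clcn7 (0.956), and Prrx2 to Rap1a (0.994) and Crem (0.992).

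Of 29 other listed regulators of lateral plate, limb and splanchnic mesenchyme, 27 were measured, and 0 passed limma's test in either direction (before adjustment 10 were higher and 1 lower at p under 0.05). Over all genes 10.9% were higher and 19.7% lower before adjustment. The median log2 change of the 27 was 0.57. In 13 of the 27 the after arrays all exceeded the before arrays, against 11.8% of all genes, and 6 stayed at background in both groups. In 1 of the 27 the after arrays all lay below, against 28.2% of all genes. Tbx20, a T-box factor of the heart, was at 5.65, 10.42 and 8.70 after and at 4.70, 4.43 and 4.26 before (log2 change 3.79, adjusted p = 0.135). Hand2, a basic helix-loop-helix partner of Twist proteins in heart and limb, was at 4.82, 9.18 and 5.89 after and at 3.76, 3.91 and 3.95 before (2.75, adjusted p = 0.191). Osr1, a zinc finger factor of lateral and intermediate mesoderm, was at 4.35, 7.95 and 6.21 after and at 4.24, 4.14 and 4.21 before (1.98, adjusted p = 0.219). In these 3 genes, as in Twist2, after replicate 2 was highest and after replicate 1 lowest. Hand2 and Osr1 were under background on every before array, and Tbx20 was above it on only 2 of the 3. The sizes of these changes therefore rest on before signals near background. The list was mixed, however. Tbx3, a T-box repressor, was at 10.49, 8.42 and 8.56 after and at 10.82, 8.39 and 9.34 before, highest on after replicate 1 among the after arrays. Barx1, a stomach mesenchyme factor, was at 5.23, 5.30 and 5.27 after and at 4.96, 4.79 and 5.03 before. Meox1 was lower on every after array, but it was under background on every array. Hoxb6, which marks the posterior lateral plate, lay between 3.86 and 4.23 after and between 3.94 and 4.30 before, above background on 1 before array alone. Without after replicate 1, 9 of the 27 were higher (Hand1, Tbx20, Isl1, Pitx1, Osr1, Meis1, Meis2, Snai1 and Snai2), against 7.8% of all genes. The lists share genes: Snai1 is also on the parietal endoderm list below, Snai2 on the neural crest list and Hand1 on the trophoblast list.

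Twist proteins work as dimers with E proteins, and Id proteins, which BMP signals induce, take E proteins out of such dimers. Of 9 genes in this group 1 rose, Id2, and 0 fell, and 6 rose without after replicate 1. Over all genes 1.24% rose, and 7.8% without that array. Id2 was at 12.39, 14.10 and 13.56 after and at 6.89, 9.19 and 7.92 before, a log2 change of 5.35 (adjusted p = 0.0431 by limma). Id3 was at 5.92, 6.52 and 6.95 after and at 4.74, 4.90 and 4.65 before (1.71, adjusted p = 0.0524). Id2 and Id3 were high on all 3 after arrays, as Foxf2 and Msx2 were. Id1 was at 11.73, 10.24 and 10.52 after and at 9.71, 7.33 and 8.78 before (2.22, adjusted p = 0.139), highest on after replicate 1. Id4 was at 6.32, 8.25 and 10.17 after and at 5.99, 5.78 and 5.95 before (2.34, adjusted p = 0.191), with after replicate 1 near the before arrays. The E protein gene Tcf12 was at 8.18, 10.55 and 10.42 after and at 7.14, 7.53 and 6.74 before (2.58, adjusted p = 0.107), while Tcf3 overlapped between the groups (0.23, adjusted p = 0.697).

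Markers of other cell types that the aggregates could hold were also read. Some lists rose and others did not, with a median log2 change of 4.72 for parietal endoderm and -0.09 for paraxial mesoderm markers. Their part in the results was not tested. For the counts of these lists, 1.24% of all genes were higher and 0.65% lower by limma's adjusted p. Before adjustment the shares were 10.9% and 19.7%, and without after replicate 1 they were 7.8% and 7.48% by adjusted p. Of 14 parietal endoderm markers 9 rose, among them the basement membrane genes Col4a1 (log2 change 6.87, adjusted p = 0.0192), Col4a2 (7.55, adjusted p = 0.0200) and Sparc (2.59, adjusted p = 0.0249). On after replicate 1 all 14 already lay above every before array, and without it all 14 rose. Their mean log2 signal was 11.91, 12.69 and 13.45 after and 7.74 to 8.44 before. Of 12 visceral endoderm markers 1 rose, Afp (10.86, adjusted p = 0.0477), or 8 without after replicate 1, and their mean was 9.01, 11.29 and 9.76 after and 5.62 to 6.04 before.

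Of 12 listed mesenchyme and fibroblast markers 10 were measured and 0 passed (before adjustment 7 were higher at p under 0.05), but 7 passed without after replicate 1. Their median log2 change was 5.43 over all arrays and 7.41 without it. Their mean log2 signal was 5.94, 11.82 and 8.69 on after replicates 1, 2 and 3, against 4.52 to 4.58 before, and after replicate 2 was above after replicate 3 in all 10. Col1a1, the main fibrillar collagen gene, was at 6.86, 15.90 and 11.71 after and at 5.17, 5.23 and 5.08 before (log2 change 6.33, adjusted p = 0.156). Twist2, Foxf1 and Twist1 had the same order over the after arrays.

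Neural crest markers had a mean of 5.63, 7.28 and 7.30 after and of 5.03 to 5.36 before. Of these 10, 1 rose, Ets1 (log2 change 2.23, adjusted p = 0.04997), 6 were higher before adjustment at p under 0.05, and 7 rose without after replicate 1. Sox9, Snai2, Tfap2b, Erbb3 and Pax3 had log2 changes of 3.34, 3.59, 2.34, 1.70 and 1.16. Each had all after arrays above the before arrays, but none of them passed over all arrays. Foxd3, on the same list, was at 5.75, 5.21 and 5.22 after and at 6.69, 6.11 and 5.57 before (-0.73, adjusted p = 0.222 by limma). The defining crest gene Sox10 stayed between 4.19 and 4.39 after and 4.28 and 4.32 before. Of 12 paraxial mesoderm markers 0 passed and 8 lay at background in both groups. Without after replicate 1, 1 was higher and 1 lower, the latter Tcf15 (adjusted p = 0.0229 by limma). The somite and presomitic genes Tbx6, Meox1 and Meox2 were under background on every array. Pax3, on this list too, was at 4.37, 5.09 and 5.86 after and at 3.77, 4.17 and 3.91 before (adjusted p = 0.149), and Tcf15 lay between 9.34 and 12.69 after and between 12.81 and 14.66 before. Cardiomyocyte markers (0 of 12 passed, 1 without after replicate 1) had a mean of 4.99, 6.46 and 5.29 after and 4.87 to 5.01 before. Of 10 endothelial markers 1 rose, Cdh5 (6.56, adjusted p = 0.0495), or 4 without after replicate 1, when 1 fell, with a list mean of 6.22, 7.02 and 7.07 after and 5.16 to 5.28 before. Trophoblast markers (0 of 9 passed, 3 without after replicate 1) had a mean of 5.35, 5.97 and 5.61 after and 4.82 to 4.98 before. Among 8 housekeeping genes 1 rose, B2m (4.19, adjusted p = 0.0376), with a median log2 change of 0.18.

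**Figure D4:**
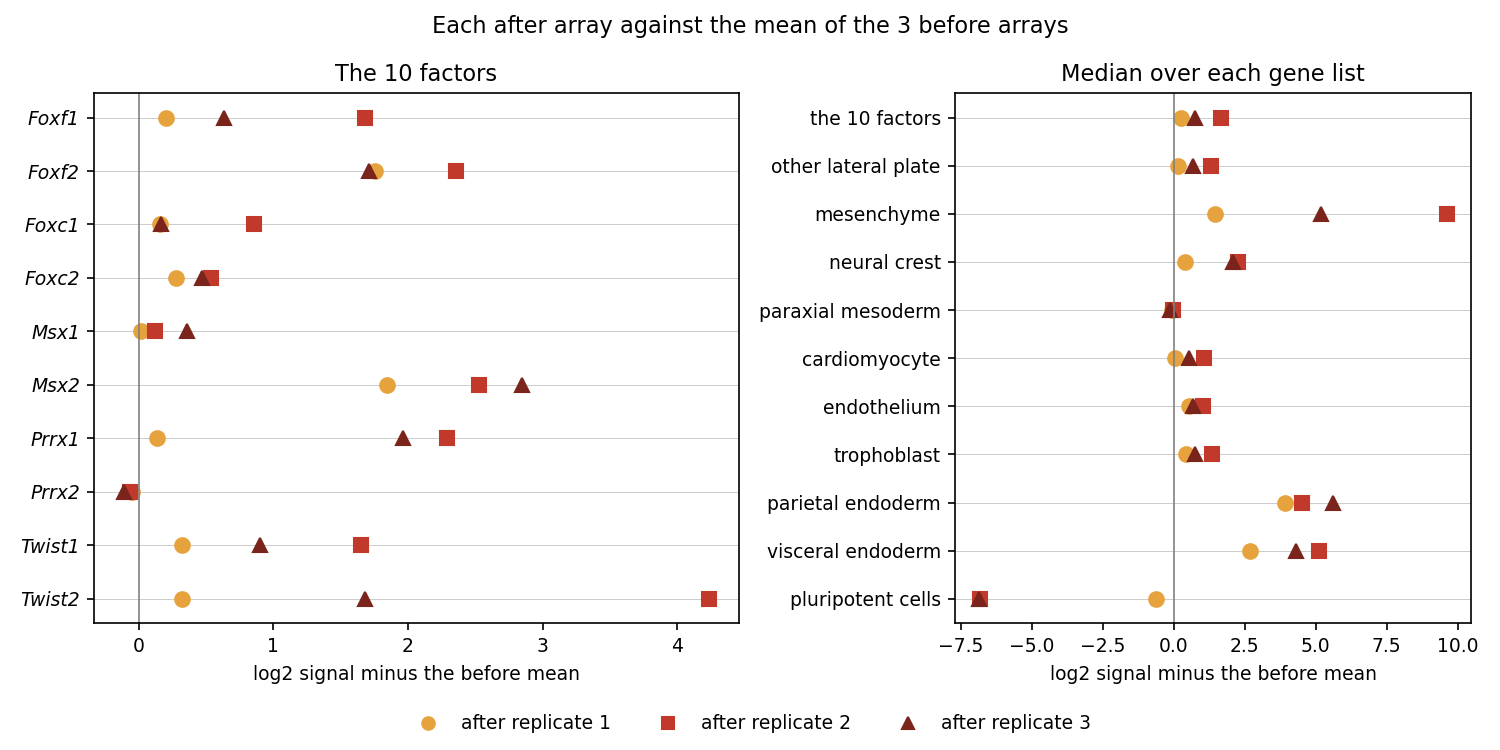
Log2 signal of each after array minus the mean of the 3 before arrays (x axis) for each factor (left) and as the median over each gene list (right), with a symbol and colour for each after replicate. After replicate 1 lies at 1.75 for Foxf2 and 1.85 for Msx2 and within 0.4 of 0 for every other factor. It is at -0.63 for the pluripotent cell list, where after replicates 2 and 3 are at -6.81 and -6.86, and at 3.92 for the parietal endoderm list.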

How the data were processed

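RNA of 6 samples was measured on Clariom D arrays. The authors deposited log2 signals for 72688 rows, which they made in Transcriptome Analysis Console. Version, summarization, background correction and genome build: not given in the sources used here. Log2 values were used as deposited (array medians 4.17 to 4.47). After the 31 AFFX rows were dropped, 72657 rows, 6701 of them controls and spike-ins, entered a two-sided limma fit (version 3.58.1, R 4.3.3, lmFit and eBayes) with Benjamini-Hochberg adjustment and a threshold of 0.05. Symbols came from the platform annotation (30638 rows with 1 symbol, 2176 with several, which name no gene). Background is the 95th percentile of mean signals over 1716 olfactory and vomeronasal receptor genes. Precision is limited by the number of arrays. Where nothing says that replicates were separate cultures, p-values measure only the spread between these samples. Named genes are the 10 members, up to 3 per list and direction past the threshold, and the 2 genes closest in pattern to each member. Other genes were picked from the lists or chromosomal neighbours after their values were seen. Members and lists were chosen with earlier results of these data known. The fit was checked on simulated data. Alternatives were quantile normalization, median centring, a dim-row filter, robust variances with a trend, and Student's test. Others were the mean of a gene's rows, controls left out, a block for replicate number, and each array left out in turn.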

Additional observations from a re-analysis of the deposited data

How the results depend on the processing

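The 2 members higher in the limma fit became 1 (Msx2) with a trend and robust variances and 0 with Student's test after adjustment. They became 0 with a replicate block, that is, with the array's number as a term in the fit. For these settings the counts over all genes are not given here. Leaving out each array in turn gave 0 to 4 members, 4 without after replicate 1 and 0 without each of the others. Over all 30176 genes 2353 were higher and 2257 lower without after replicate 1, 101 and 67 without before replicate 2, and 0 and 0 without each of the other 4, so the 0 is not particular to the members. Quantile normalization, median centring, the filter on dim rows, the mean of a gene's rows and leaving out controls kept 2. The median log2 change over the members was 0.51 without after replicate 2 and ranged from 0.51 to 1.22 over leaving out each array. Of the other lateral plate regulators, 1 was higher (Snai1, also on the parietal endoderm list) with the filter on dim rows, which tests 40339 rows. With Student's test before adjustment 4 were higher and 1 lower. Leaving out each array gave 0 to 9 higher, 9 of them without after replicate 1. Where the same rows and arrays were used, the cause was not tested. Over all alternatives 132 of 150 values of single members kept their side of the threshold, 129 of them with the same sign. The 3 others are Prrx2, which passed nowhere. Of the rest, 15 lost the call (Foxf2 and Msx2) and 0 reversed a call. All 15 losses fell on the 2 called members, while the other 8 had no call to lose. The 132 therefore say little of how firm the 2 calls are. The call was gained by 3, namely Foxc2 by Student's test before adjustment, and Prrx1 and Twist1 without after replicate 1. The labels share only a replicate number: the correlation between same-numbered arrays, taken on deviations from the group means, was -0.03, 0.14 and -0.08, and 2 of 6 arrays correlated best with their own number. Among the members and the other lateral plate regulators the replicate block changed no call but those of Foxf2 and Msx2.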

Other observations

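Relatives of the members in other branches of their families gave further values. Among 35 other forkhead genes measured 0 passed limma's test (before adjustment 7 were higher and 1 lower at p under 0.05, against 10.9% and 19.7% of all genes). Of the 35, 12 lay at background in both groups. Without after replicate 1, 5 were higher and 3 lower, among them Foxa2 and Foxh1 (adjusted p = 0.00467 and 0.0152 by limma). Over all genes 7.8% were higher and 7.48% lower without it. The median log2 change of the 35 over all arrays was 0.05. Foxa2, a factor of endoderm, was at 8.06, 9.56 and 10.44 after pre-differentiation and at 6.06, 6.27 and 5.98 before it (log2 change 3.25, adjusted p = 0.0616). Foxh1, a partner of Smad proteins in Nodal signalling, was at 6.85, 4.65 and 4.45 after and at 7.39, 7.82 and 6.70 before (-1.98, adjusted p = 0.161).

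Among 18 Dlx, Alx and paired-like homeobox relatives 0 passed (before adjustment 1 was higher and 0 lower at p under 0.05, against 10.9% and 19.7% of all genes). Of the 18, 11 lay at background in both groups. Without after replicate 1, 2 were higher and 0 lower, against 7.8% and 7.48% of all genes, with Dlx5 at an adjusted p of 0.0425 by limma. Dlx5, a homeobox factor of branchial arch and limb mesenchyme, was at 5.24, 6.98 and 8.82 after and at 5.19, 4.94 and 5.11 before (1.94, adjusted p = 0.225). Dlx2 was at 4.801, 6.13 and 8.56 after and at 4.69, 4.78 and 4.57 before (1.82, adjusted p = 0.266). Both were highest on after replicate 3, where Twist1, Twist2, Foxf1 and Prrx1 were highest on after replicate 2.

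Among 12 Twist-like and related basic helix-loop-helix genes 0 passed (before adjustment 3 were higher and 2 lower at p under 0.05, against 10.9% and 19.7% of all genes). Of the 12, 5 lay at background in both groups. Without after replicate 1, 1 was higher and 1 lower, the latter Tcf15 (adjusted p = 0.0229 by limma), against 7.8% and 7.48% of all genes. Tcf15, known from somites and from embryonic stem cells leaving the naive state, was at 12.69, 10.21 and 9.34 after and at 14.66, 14.26 and 12.81 before (-3.17, adjusted p = 0.133). Msc, a repressor in muscle precursors, was at 4.49, 4.31 and 4.09 after and at 7.07, 4.60 and 6.16 before (-1.65, adjusted p = 0.175), so that its before arrays spread more widely than the groups differed.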
